A study of Mus musculus with 183 samples.

Results

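The first 2 hours after transcription was stopped were examined in the Aven-/- clone 7E of mouse embryonic stem cells (mESCs), using the 12 libraries of this clone taken at 0 and 120 min, out of the 183 samples of the series. Cells were at day 0, without 4-hydroxytamoxifen (4OHT), or had received 0.1 µM 4OHT for 4 days, and were lysed after 120 min of actinomycin D, a drug that blocks RNA synthesis, or after 6 h of its solvent DMSO (mock, taken as 0 min). Each of the 4 groups held 3 libraries, which the paper calls technical replicates. The p-values therefore measure the spread between these libraries of a single clone and not between clones. Cells were seeded in wells, and whether the replicates came from separate experiments is not stated. The genotype of both days is Rosa26Cre-ERT2/BirA-V6 Skiv2l 3xFLAG-Avi/3xFLAG-Avi Aven-/-, a single clone grown in serum and LIF, in which 4OHT activates Cre to excise part of Skiv2l; the half-life labels do not write the loxP sites that the methods place in this gene, and the day 0 controls lack Aven as well. No 4OHT treatment of cells without these alleles belongs to this comparison, so effects of the drug, of Cre and of losing SKIV2L cannot be told apart. Libraries of the Skiv2l fl/fl clone 5F (Rosa26Cre-ERT2/- Skiv2l fl/fl, Aven intact, 11 libraries, with 2 at day 0 and 120 min) served to sort mRNAs by stability and to compare the response.

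SKIV2L is the helicase of the Ski complex, which threads cytoplasmic RNA into the exosome for 3′-5′ degradation, and AVEN is an RNA-binding protein that associates with ribosomes and with this complex. An mRNA that disappears within 2 h of transcription block is short-lived, a property of many mRNAs for immediate early transcription factors, signalling inhibitors and zinc-finger proteins. Replication-dependent histone mRNAs form a class of their own: they lack a poly(A) tail, end in a conserved stem-loop, and are removed quickly when DNA synthesis stops. The question addressed was how much of each mRNA was left at 120 min, and whether that share differed between day 4 and day 0.

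The alleles were made with Cas9 guides, shown here because they mark which parts of both genes were targeted. Each is written 5′ to 3′ with the genomic PAM in capitals, and coordinates (mm10, without the PAM) follow the sequence. The Skiv2l pair flanks the stretch from intron 10 to intron 17, and the Aven pair lies in exons 3 and 6.
Skiv2l intron 10: gacctgggctaacttaggaaAGG
Skiv2l intron 17: tctccccttaaccttaaatgGGG
Aven exon 3: gctgaggagaaagaatgggaTGG
Aven exon 6: agagtgcctgaagcaaatgcTGG
The Skiv2l guides match chr17:34846312-34846331 and chr17:34844195-34844214 on the minus strand, and the Aven guides chr2:112625181-112625200 and chr2:112630912-112630931 on the plus strand.

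Skiv2l (chr17:34839228-34850210) had 968, 1038 and 903 normalized counts in the mock libraries of day 0 and 406, 389 and 368 in those of day 4. The groups did not overlap, and the mock level fell by 1.32 on the log2 scale (adjusted p = 4.23e-08, edgeR's quasi-likelihood test). Normalized counts are reads divided by a size factor computed among the libraries of the same time, with the level of each time then set by a factor from its spike-ins (0.657 at 120 min), so that a change in share left is relative to the typical gene. The share of Skiv2l mRNA left at 120 min was 75.6% ± 4.00 (SE, n = 3) at day 0 and 57.0% ± 4.52 (SE, n = 3) at day 4, a difference that did not pass the test (adjusted p = 0.152). Aven had 22 to 88 reads per library of clone 7E, against 879 to 1343 in the libraries of clone 5F. In clone 5F, the mock libraries labelled day 4 did not show lower Skiv2l than those of day 0 (132 to 153 against 147 to 148 CPM), and they are therefore called libraries labelled day 4 below.

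The 12 libraries held 28295778 to 31175268 counts, of which 93.2 to 96.4% fell on protein-coding and 0.767 to 3.99% on mitochondrial genes. The ratio of mRNA to ERCC spike-in counts was 299.6 ± 5.41 (SD, n = 3) in mock cells at day 0 and 143.8 ± 1.25 (SD, n = 3) at day 4, or 48.0% of it; the spike-ins went into the lysis buffer, and fewer cells and less RNA per cell cannot be told apart. After 120 min 67.0% ± 2.70 (SE, n = 3) of this pool was left at day 0 and 72.2% ± 5.31 (SE, n = 3) at day 4, values whose errors overlap. All 10 embryonic stem cell markers exceeded 1 CPM in every library, and their sum was 3383 to 3491 CPM in mock cells at day 0 and 2789 to 2875 at day 4. Of 10 primitive endoderm markers, 6 exceeded 1 CPM, with sums of 430.5 to 443.8 and 662.1 to 721.2 CPM, and of 10 fibroblast markers 1 did, with sums of 4.65 to 4.97 and 7.33 to 9.65 CPM. No marker was at 0 in all 12 libraries, and the part of these shifts in the results was not tested.

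Histone mRNAs made up a large part of the genes with more left at day 4. Of 16946 genes tested for a change in the share left, 126 had more left at day 4 and 93 had less (adjusted p under 0.05), against 1203 and 1228 at an unadjusted p under 0.05. The 126 genes are 0.744% of those tested and the 93 are 0.549%, together 1.29%. Replication-dependent histone genes made up 50 of the 126, 69 were other protein-coding genes and 7 were not protein-coding; of the 93, 91 were protein-coding and 2 were not. In each of these 219 genes the 3 shares of day 4 lay entirely above or entirely below the 3 shares of day 0. Over all genes tested, 2217 had shares entirely above and 2532 entirely below. Most genes lost mRNA within 120 min on both days, with 13968 falling and 22 rising at day 0 (82.4% and 0.13%, together 82.6%) and 14470 falling and 6 rising at day 4 (85.4% and 0.0354%).

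The balance of gains and losses depended on the scaling. When each library was scaled by its own spike-ins, the median over all genes moved from -0.02 to 0.19 on the log2 scale, and 392 genes had more and 15 less left; thus 96.3% of called genes had more left in place of 57.5%. No called gene changed sign under that scaling. Without the libraries numbered replicate 2, 50 genes had more and 11 less left, and without those numbered 3, 61 and 22; the histone genes among them numbered 47 and 48, whereas 3 and 10 of the other 76 genes with more left stayed past the threshold. The changes below are relative to the typical gene unless own spike-ins are named.

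**Figure D1:**
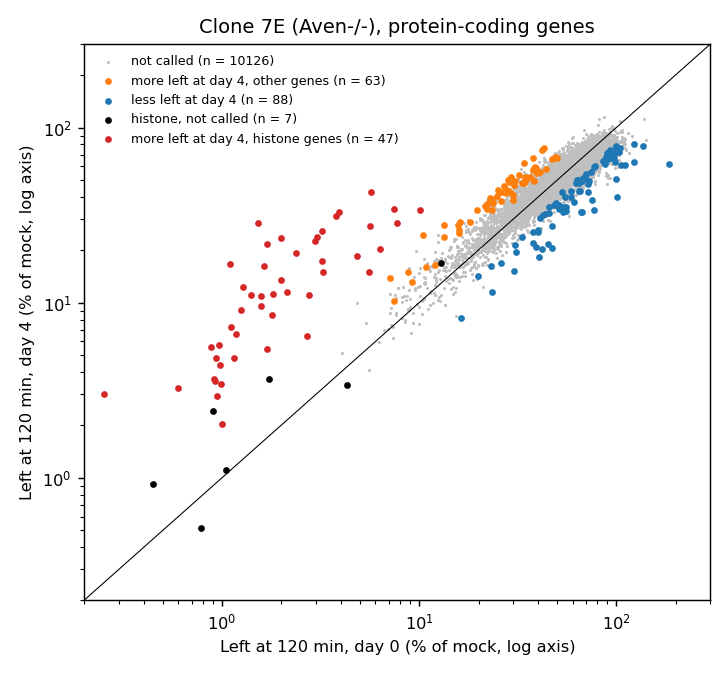
Share of each mRNA left at 120 min in clone 7E, at day 0 (x axis) and day 4 (y axis), both in percent of mock on log axes, for 10324 protein-coding genes with a mean of at least 100 counts; the line marks equal shares. The 47 called histone genes (red) lie above the line and far to the left, 63 other genes with more left (orange) and 88 with less left (blue) lie near the main cloud, and under own spike-ins none of these called genes changes sign.

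Most histone mRNA was gone by 120 min at day 0, and several times more of it was left at day 4. Summed over the 69 annotated replication-dependent histone genes, the 3 libraries of day 0 kept 3.41, 3.48 and 3.00% of the mock level at 120 min, and those of day 4 kept 24.4, 20.5 and 21.6%. The days did not overlap, and with 3 libraries against 3 an exact permutation test cannot go below p = 0.1. In the fit over all genes, 50 of the 60 histone genes tested had more left and 0 had less (0 at an unadjusted p under 0.05 and 0 by DESeq2), with a median log2 change of 2.39, beside -0.02 over all genes tested. The mock level of the sum was 1.46-fold higher at day 4, with 176360, 201860 and 192050 normalized counts at day 0 and 293760, 260810 and 275160 at day 4. The mock libraries enter both the share left and the mock level, so these are not independent. All 50 calls held with own spike-ins, which called 51, and the number was 50, 47 and 48 without replicates 1, 2 and 3.

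The families differed in how much was left. Linker histone H1, which binds DNA between nucleosomes, had the largest summed shares of the 5 families, 4.67, 4.64 and 3.98% at day 0 and 33.6, 28.5 and 29.9% at day 4, and all 6 of its genes passed the test. Of the core histones, which form the nucleosome itself, H4 kept 3.94% ± 0.313 (SE, n = 3) at day 0 and 18.9% ± 1.55 (SE, n = 3) at day 4, with 10 of 12 genes called. H2A rose from 2.27% ± 0.136 to 11.4% ± 0.757 (SE, n = 3), with 11 of 15 called. H2B rose from 1.42% ± 0.071 to 10.8% ± 0.998 (SE, n = 3), with 14 of 16 called. H3 had the smallest share at day 4, 8.89% ± 0.448 (SE, n = 3) against 1.60% ± 0.128, with 9 of 11 called. In each of the 5 families every library of day 4 lay above every library of day 0.

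**Figure D2:**
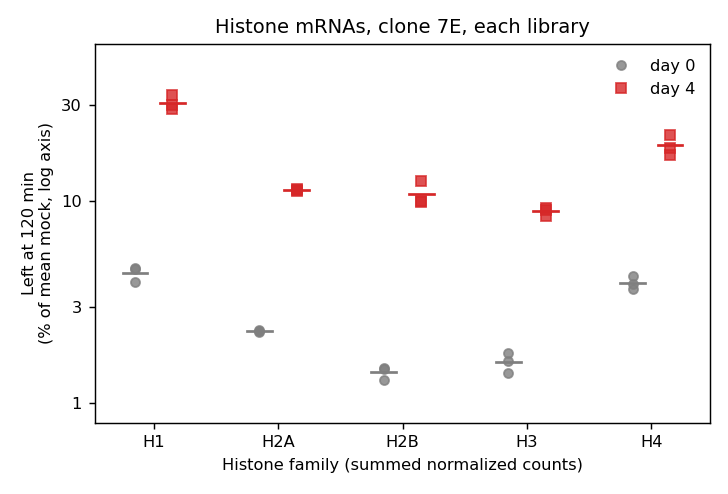
Share of histone mRNA left at 120 min in clone 7E by family, in percent of the mean mock level of the same day on a log axis; points are libraries, 3 per day, and short lines are means. The families lie between 1.31 and 4.67% at day 0 and between 8.41 and 33.6% at day 4, with no overlap of days in any family.

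The most abundant gene of each family was called as well, although reads that fit several near-identical histone copies were not counted and single genes are uncertain for that reason. Hist1h1a (chr13:23763666-23764406), encoding an H1 linker histone, had 6.17, 5.74 and 5.16% left at day 0 and 47.3, 39.4 and 41.3% at day 4, a log2 change of 2.91 ± 0.11 (SE) with an adjusted p of 2.09e-10. Hist2h2bb (H2B, chr3:96269752-96270132) went from 0.966% ± 0.0458 to 5.70% ± 0.459 (SE, n = 3). Hist1h2ak (H2A, chr13:21753435-21753827) went from 3.26% ± 0.298 to 14.9% ± 1.53 (SE, n = 3). Hist1h4d (H4, chr13:23581598-23582735) had 4.77, 5.37 and 4.34% left at day 0 and 21.1, 16.3 and 18.2% at day 4. Hist1h3e (H3, chr13:23561534-23562369) had the smallest change of the 5, a log2 change of 1.68 ± 0.15 (SE, adjusted p = 3.02e-06), from 1.68 to 5.42% left. All 5 passed the test with each replicate left out.

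The largest log2 changes among histone genes were those of Hist1h4n, Hist1h4f, Hist1h2bh and Hist1h2bb, where almost nothing was left at day 0. Hist1h4f, another H4 gene, went from 1.21, 2.10 and 1.25% to 33.2, 25.3 and 27.0%, a log2 change of 4.22 ± 0.23 (SE, adjusted p = 9.02e-09). Hist1h2bh and Hist1h2bb, both H2B genes, went from 1.10 to 16.6% and from 1.69 to 21.8%. Hist1h4n had 0.651, 0 and 2.02 normalized counts at 120 min on day 0 and 24.5, 35.2 and 31.0 on day 4; these day 0 values are too close to 0 for a fold. The 10 histone genes that did not pass the test were Hist1h4a, Hist1h2bc, Hist3h2a, Hist2h2be, Hist2h3c2, Hist1h2ag, Hist2h3b, Hist1h4j, Hist1h2ad and Hist1h2ah, named after their values were seen. Among them, Hist1h4a had a mean of 1429 counts and a log2 change of 0.38 (adjusted p = 0.193), and 4 had a negative change, the lowest -0.73.

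The histone stem-loop, which takes the place of a poly(A) tail, is shown for the 5 abundant genes and for Hist1h4a, the uncalled gene with the most counts, so that called and uncalled members can be set side by side. Letters are the mm10 gene strand 5′ to 3′, the 16 bases of the stem-loop are in capitals, and 5 bases flank it on each side.
Hist1h1a: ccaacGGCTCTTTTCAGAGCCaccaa
Hist1h2ak: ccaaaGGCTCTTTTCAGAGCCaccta
Hist2h2bb: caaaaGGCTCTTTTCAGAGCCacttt
Hist1h3e: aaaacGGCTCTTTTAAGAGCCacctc
Hist1h4d: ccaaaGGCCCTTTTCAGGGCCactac
Hist1h4a: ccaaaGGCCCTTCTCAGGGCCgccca
These windows lie at chr13:23764387-23764412 (+), chr13:21753377-21753402 (-), chr3:96270166-96270191 (+), chr13:23561898-23561923 (-), chr13:23581945-23581970 (+) and chr13:23760795-23760820 (-). The histone stem-loop was searched on the gene strand in the 150 bases after the stop codon. It was present in 47 of 49 called and 9 of 10 uncalled histone genes with a coding model, and in 0.0229% of 21821 other coding genes. Uncalled genes such as Hist1h2ag, Hist1h2bc and Hist2h3b had the same 16 bases as the called Hist1h1a. The letters of Hist1h4a thus do not stand for the uncalled genes in general. The annotated 3′ UTR was longer than 200 bases in 16 of the 49 called genes and in 5 of the 10 uncalled ones, and it held AATAAA, the signal for a poly(A) tail, in 11 and 5.

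The later time points used the same mock libraries and so are given as values only. At 240 min 1.08% of histone mRNA was left at day 0 and 12.4% at day 4, and at 360 min 0.599 and 7.14%. The histone mRNA of day 4 thus still lay at 360 min above the level that day 0 had reached at 120 min.

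The clones differed in Skiv2l as well as in Aven before any 4OHT: Skiv2l had 33.5, 36.1 and 31.2 CPM in mock cells of clone 7E at day 0 and 147 to 148 CPM in those of clone 5F. Which of these, or what else differs between 2 single clones, goes with a difference between them cannot be told apart. Clone 5F had less histone mRNA left at day 0 than clone 7E and about as much in the libraries labelled day 4. The summed shares in clone 5F were 1.06% ± 0.0726 (SE) and 22.5% ± 1.66 (SE, n = 3), beside 3.30% ± 0.198 and 22.1% ± 1.38 (SE, n = 3) in clone 7E. The difference between clones in the change from day 0 to day 4 was tested directly over 18206 genes, of which 15 passed (0.0824%): 13 histone genes and Btg2 with a smaller log2 change in clone 7E (0.0769%), and Nlrp12 with a larger one (0.00549%). Without replicate 1, 2 or 3 of clone 7E, 10, 11 and 12 genes had a smaller change and 0, 0 and 1 a larger one. At an unadjusted p under 0.05, 344 had a smaller and 399 a larger log2 change. With own spike-ins 9 genes had a smaller and 15 a larger change, and 83 and 4280 at an unadjusted p under 0.05, so the balance over all genes depended on the scaling. The histone genes included 5 of the H1 genes. Hist1h1a changed by 6.00 on the log2 scale in clone 5F and by 2.91 in clone 7E, a difference of -3.09 ± 0.17 (SE, adjusted p = 1.63e-10); its shares were 0.67 and 42.9% in clone 5F and 5.69 and 42.7% in clone 7E. Hist1h1d likewise had 0.513 and 30.4% left in clone 5F and 3.21 and 25.5% in clone 7E. With simulated counts this test found 75% of genes whose change differed by 1 and 12% of those that differed by 0.5 on the log2 scale. Smaller differences between clones were thus found less often. The genes changed in the simulation had a mean of at least 100 counts, and libraries were drawn independently.

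Beyond histones, mRNAs that decayed fast tended to have slightly more left at day 4, and stable ones slightly less. Genes were sorted by the share left in clone 5F at day 0, whose libraries are not in the fit, and 762 protein-coding genes with under 25% left there and at least 100 mock counts on average were called short-lived. Of these, 54 were histone genes, of which 47 had more left at day 4. Of the other 708 genes 25 had more left and 6 had less, 3.53% and 0.847%, beside 0.744% and 0.549% of all genes tested. Without replicate 1, 2 or 3 the numbers with more left were 20, 2 and 5 and those with less left 7, 1 and 1, so single calls in this class rest on all 3 replicates. Their median log2 change was 0.15, and 71.0% of them had a positive change. The median share of these 708 genes was 19.2% at day 0 and 21.1% at day 4. In clone 7E, 603 of them had under 25% left at day 0 and 498 at day 4.

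The median change followed the class in order. Over all genes tested, 0.744% had more and 0.549% less left. Genes with 25 to 50% left had a median log2 change of 0.06, with 35 of 2798 having more and 23 less left (1.25% and 0.822%). Genes with 50 to 75% left had a median of -0.04, with 4 of 4623 having more and 25 less left (0.0865% and 0.541%). The share with less left in that class was thus near that over all genes. Genes with over 75% left had a median of -0.12, with 0 of 2386 having more and 29 (1.22%) less left. In this class 7 had more left at an unadjusted p under 0.05 and 0 by DESeq2, and the median share was 80.6% at day 0 and 74.5% at day 4. Without replicate 2 the called genes with more and less left in these 3 classes fell to 0 and 4, 0 and 4, and 0 and 1, and without replicate 3 to 2 and 6, 0 and 6, and 0 and 6. With each replicate left out, the class medians stayed within 0.14 to 0.17, 0.05 to 0.06, -0.05 to -0.04 and -0.14 to -0.11. With own spike-ins the medians were 0.37, 0.28, 0.17 and 0.09, so their order stayed and the sign of the 2 stable classes turned positive. The 20 non-histone genes just under the 25% limit had a median change of 0.09 and the 20 just above it 0.15.

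**Figure D3:**
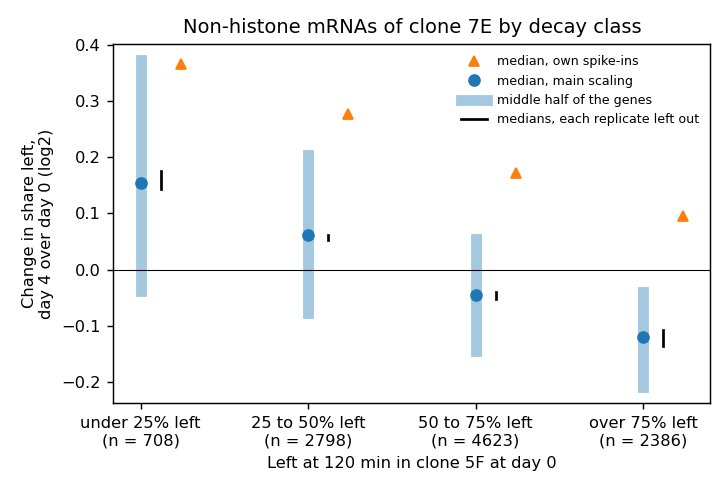
Change in the share left at 120 min, day 4 over day 0, on the log2 scale for non-histone protein-coding genes of clone 7E, by the share left in clone 5F at day 0. Circles are medians, pale bars the interquartile range of the genes, black lines the range of medians with each replicate left out and triangles medians with own spike-ins; the circles run from 0.15 to -0.12 and the triangles, all above 0, from 0.37 to 0.09.

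None of the 10 fastest decaying mRNAs other than histones passed the test. The 10 mRNAs with the lowest share in clone 5F at day 0, of those with at least 500 mock counts, had 4.06 to 10.7% left at day 0 and at most 13.0% at day 4 in clone 7E, and 0 of 10 passed edgeR's test (adjusted p = 0.212 to 0.996) or that of DESeq2. At an unadjusted p under 0.05, 1 had more and 1 less left. Dusp6, which removes phosphates from ERK, had 8.28, 8.57 and 7.66% left at day 0 and 9.47, 7.72 and 7.34% at day 4. Socs3, an inhibitor of JAK-STAT signalling and thus of the LIF response, had 7.34, 7.83 and 6.91% at day 0 and 6.71, 6.45 and 5.70% at day 4. Ccn1, a secreted matrix protein, had 5.26, 5.84 and 5.52% left at day 0 and 3.60, 3.71 and 5.00% at day 4, while its mock level was higher at day 4 by 2.26 on the log2 scale (adjusted p = 5.32e-10). Csrnp1, a nuclear protein induced by AXIN1, had 7.70, 8.03 and 5.88% at day 0 and 9.04, 9.47 and 9.45% at day 4, which did not overlap but did not pass the test (adjusted p = 0.212). The others were Dusp1, Gbx2, Med26, Zfp235, Zfp748 and Zfp87, with log2 changes between -0.03 and 0.33.

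AU-rich elements, which recruit deadenylating factors, were looked for as TATTTAT on the mRNA strand in the last 300 bases of each mRNA. This word was found in 16.4% of the short-lived non-histone genes and in 12.8, 8.63 and 5.83% of the classes of rising stability, beside 9.46% of all 13806 non-histone coding genes tested; the Pumilio word TGTANATA was found in 13.6, 13.4, 10.0 and 5.03%, beside 9.32%. Of the 69 genes with more left 8 held TATTTAT and of the 91 with less left 8 did, 11.6% and 8.79%. Short-lived genes with the word had a median log2 change of 0.14 and those without it 0.16. The windows below, on the mRNA strand with the word in capitals, show it in 3 rapid decayers that were not called and in Mdm2 and Plk2, which had less left at day 4.
Ccn1: aatgttttttTATTTATcaaagtgtag
Dusp1: tttttaccttTATTTATttttgtgtag
Socs3: tttgcacataTATTTATatttatactc
Mdm2: gcattgatgtTATTTATttgcaaataa
Plk2: ataaacttttTATTTATtacagcccca
They lie at chr3:145647094-145647120 (-), chr17:26505871-26505897 (-), chr11:117966140-117966166 (-), chr10:117688916-117688942 (-) and chr13:110400735-110400761 (+). Such a match describes the letters and not a site in use.

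The protein-coding genes with less left at day 4 included several targets of p53, the transcription factor that answers DNA damage and other stress. Of 20 p53 target genes tested, 8 had less left, beside 0.549% of all genes. Those with more left numbered 0, beside 0.744% (0 at an unadjusted p under 0.05 and 0 by DESeq2), and 12 did not pass the test. The median log2 change was -0.34, beside -0.02 over all genes. The 8 genes went from 23.5 to 69.2% left at day 0 to 11.6 to 51.3% at day 4. With own spike-ins 3 of the 8 passed, and 3 passed without replicate 2 and 3 without replicate 3; Plk2, Bbc3 and Mdm2 passed with each replicate left out. In mock cells 11 of the 20 were higher and 1 lower at day 4, beside 16.0% and 13.4% of all genes. The mock libraries are shared by both comparisons.

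Mdm2 (chr10:117688875-117710758), the ubiquitin ligase that targets p53, had 40.0, 39.5 and 37.9% left at day 0 and 21.5, 20.9 and 19.9% at day 4 (log2 change -0.91 ± 0.09 SE, adjusted p = 2.65e-05). Its mock level was 6397, 6607 and 5895 normalized counts at day 0 and 11324, 11459 and 9753 at day 4, whereas at 120 min it was 2518, 2490 and 2386 against 2327, 2268 and 2162. The days thus differed more in mock cells than at 120 min. Plk2 (chr13:110395046-110400844), a stress-induced polo-like kinase, had the largest change of the list, from 43.1, 42.0 and 37.1% to 20.0, 18.0 and 16.8% (log2 change -1.16 ± 0.12 SE, adjusted p = 2.66e-05). Its normalized counts were 2800, 3116 and 2747 in mock cells at day 0 and 6374, 6219 and 5417 at day 4, and 1244, 1214 and 1071 against 1203, 1080 and 1008 at 120 min. Bbc3, which encodes the pro-apoptotic protein PUMA, went from 66.3, 72.2 and 59.8% to 32.9, 30.7 and 34.7% (adjusted p = 2.91e-04).

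Cdkn1a, which encodes the cell cycle inhibitor p21, went from 19.7, 25.7 and 25.1% to 9.90, 11.5 and 13.3%, a log2 change of -1.02 ± 0.18 (SE, adjusted p = 0.00651); its adjusted p was 0.105 with own spike-ins, 0.141 without replicate 2 and 0.104 without replicate 3. The remaining called members were Polk, Tnfrsf10b, Phlda3 and Trp53inp1, with log2 changes of -0.67 to -0.43. Among the uncalled members, Pmaip1 had 83.9% left at day 0 and 65.0% at day 4 (adjusted p = 0.124), Gadd45a had 22.2 and 22.5% and Perp 59.7 and 62.6%, and Gadd45a and Perp had mock levels higher at day 4 by 0.45 and 0.98 on the log2 scale. Mdm4, an inhibitor of p53 outside the list and named after its values were seen, had less left at day 4, 43.7% against 64.4% (adjusted p = 0.00965, and up to 0.219 with 1 replicate left out).

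**Figure D4:**
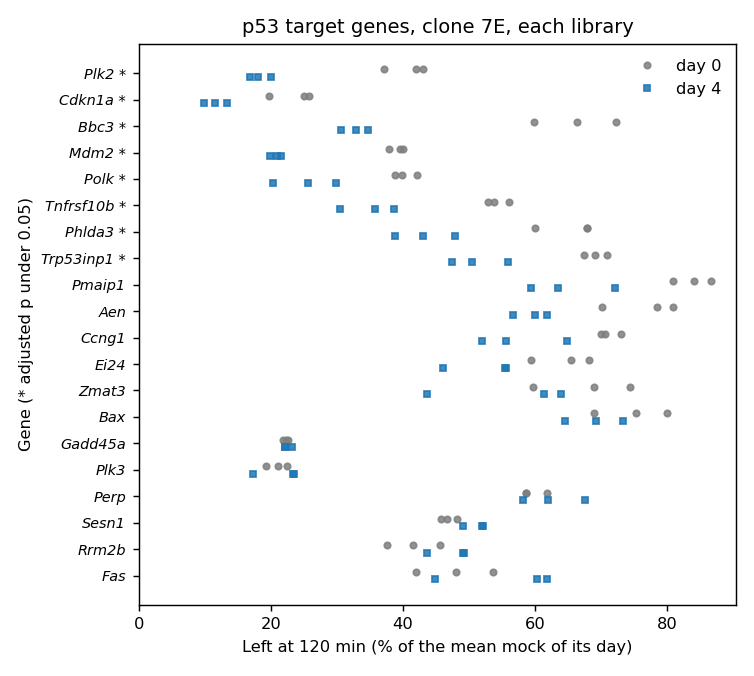
Share left at 120 min of the 20 p53 target genes tested in clone 7E, in percent of the mean mock level of the same day; each point is a library, 3 per day, and genes are ordered by their change. Asterisks mark the 8 genes with an adjusted p under 0.05, all with less left at day 4; Fas, at the bottom, had 47.9% left at day 0 and 55.6% at day 4.

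Genes of the integrated stress response, which ATF4 drives when translation initiation is slowed, moved both ways. Of 19 tested, 3 had more left and 6 had less, beside 0.744% and 0.549% of all genes, and 17 were higher in mock cells at day 4 with 0 lower, beside 16.0% and 13.4%. Own spike-ins left 3 with more and 0 with less. Atf4 itself had 30.5, 29.7 and 29.5% left at day 0 and 39.6, 39.2 and 37.3% at day 4 (adjusted p = 0.0278). Ifrd1, a transcriptional cofactor with an upstream open reading frame, went from 23.8, 21.6 and 21.3% to 40.2, 36.4 and 34.4% (log2 change 0.73 ± 0.11 SE, adjusted p = 0.00142). Trib3, a pseudokinase, went from 29.9 to 41.1%. Ddit4, an inhibitor of mTORC1, had the largest called loss, from 69.0, 82.9 and 73.5% to 34.8, 39.8 and 40.6% (log2 change -0.97 ± 0.13 SE, adjusted p = 6.27e-04). The others with less left were Nupr1, Sesn2, Slc3a2, Asns and Psat1. Ddit4 alone of the 9 called genes passed with each replicate left out, and without replicate 2 the list had 0 genes with more and 1 with less left.

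Immediate early genes, which serum and growth factors switch on without new protein synthesis, had a median log2 change of -0.19 that became 0.02 with own spike-ins. Of 24 tested 2 had less left and 0 more, beside 0.549% and 0.744% of all genes, with 1 having more at an unadjusted p under 0.05 and 0 by DESeq2. Btg2, an antiproliferative deadenylation cofactor that is a p53 target as well, went from 44.7, 46.1 and 43.8% to 22.0, 19.9 and 23.3%, a log2 change of -1.05 ± 0.10 (SE, adjusted p = 6.16e-06). Junb, a subunit of AP-1, went from 15.6, 18.3 and 14.8% to 8.87, 8.00 and 7.80% (adjusted p = 0.00142, and 0.0539 without replicate 3). In clone 5F Btg2 had 43.7% left at day 0 and 32.4% in the libraries labelled day 4, and its log2 change was larger in size in clone 7E by 0.61 ± 0.12 (SE, adjusted p = 0.0416). Fos, Jun and Egr1 had 9.50, 14.9 and 21.6% left at day 0 and 8.47, 11.1 and 20.5% at day 4 and did not pass the test.

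Among called protein-coding genes outside histones with a mean of at least 100 counts, the 10 with the largest loss were Ubap1l, Htr1b, Tpt1, Zfp750, Plk2, Ddit4l, Btg2, Lpin1, Cdkn1a and Bbc3, with log2 changes from -1.59 to -1.01. Of these, 9 had higher mock levels at day 4 and 0 lower, beside 16.0% and 13.4% of all genes tested. Over all 91 protein-coding genes with less left, 51 were higher in mock cells at day 4 and 5 lower. The mock libraries enter both the share left and the mock level. Lpin1, a phosphatidate phosphatase of lipid synthesis, went from 64.7, 70.4 and 65.6% to 30.1, 34.2 and 34.2% (adjusted p = 2.66e-05). Ddit4l, a relative of Ddit4, went from 43.0, 41.9 and 41.3% to 20.7, 19.6 and 20.2%. Ubap1l had more RNA at 120 min than in mock cells at day 0 (184, 220 and 150%) and 55.7, 56.8 and 72.1% at day 4, from 55.1 to 139 normalized counts in mock cells. Htr1b, a serotonin receptor, had 20.4 to 26.4 normalized counts in mock cells at day 0 and 200.5 to 236.4 at day 4. Tpt1 has many processed copies in the genome and is uncertain. Bbc3, Btg2, Ddit4l, Lpin1 and Plk2 passed with each replicate left out, and the other 5 reached adjusted p-values of 0.079 to 0.639.

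The genes with more left outside histones had diverse functions. Among those called, protein-coding and with a mean of at least 100 counts, the 10 with the largest gain were Rpl3, Nrros, Bambi, Ano3, Zfp764, Herpud1, Stc2, Tmem268, Otub2 and Svop, with log2 changes from 1.22 to 0.82. They had 7.13 to 42.8% left at day 0 and 13.8 to 76.2% at day 4. Bambi, a pseudoreceptor that dampens TGF-beta signalling, had 7.40, 7.75 and 6.25% left at day 0 and 13.7, 13.9 and 13.8% at day 4 (log2 change 0.95 ± 0.14 SE, adjusted p = 0.00195). Nrros, which anchors latent TGF-beta, went from 11.9, 12.1 and 15.9% to 24.3, 32.2 and 26.9%. Lefty1, a secreted inhibitor of NODAL, had 28.8, 27.6 and 24.3% left at day 0 and 51.6, 43.2 and 45.0% at day 4 (log2 change 0.79 ± 0.12 SE, adjusted p = 0.00127), with no called change in its mock level (adjusted p = 0.465). Of the 31 signalling feedback genes tested, Lefty1 was the only one with more left, and Id1, an inhibitor of basic helix-loop-helix factors, the only one with less (30.9 to 19.4%, adjusted p = 0.0425). Without replicate 2 neither passed, and the adjusted p of Lefty1 was then 0.0923. Over all genes tested 0.744% had more and 0.549% less left, so 1 call each way among 31 genes says little about this list.

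Herpud1, part of the machinery that removes misfolded proteins from the endoplasmic reticulum, went from 16.6, 14.5 and 16.0% to 30.2, 27.7 and 25.8% (adjusted p = 0.00179), and its mock level was higher at day 4 by 1.07 on the log2 scale. Stc2, a secreted glycoprotein, went from 31.6, 29.7 and 26.4% to 49.3, 54.6 and 52.3%, with a mock level higher by 1.80. Svop, a synaptic vesicle transporter, went from 41.4, 44.7 and 39.8% to 84.1, 65.7 and 72.4%. Rpl3, a protein of the large ribosomal subunit, had 10.6, 10.7 and 10.1% left at day 0 and 20.8, 23.5 and 29.1% at day 4 (adjusted p = 7.56e-05), while the 80 ribosomal protein genes tested had a median share of 78.7% at day 0 and 68.9% at day 4, with a median log2 change of -0.09 that was 0.12 with own spike-ins. Rps2 was the other ribosomal protein gene called, with less left (99.8 to 50.9%, adjusted p = 0.0114 and up to 0.230 with 1 replicate left out), and both have near-identical copies in the genome, so their values are uncertain. These calls, 1 each way among 80 genes, stand beside 0.744% with more and 0.549% with less left over all genes tested. Rpl3 was the only one of the 10 genes with the largest gain that passed with each replicate left out; the other 9 reached adjusted p-values of 0.105 to 0.513, and over all 10 the log2 change stayed between 0.66 and 1.38.

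**Figure D5:**
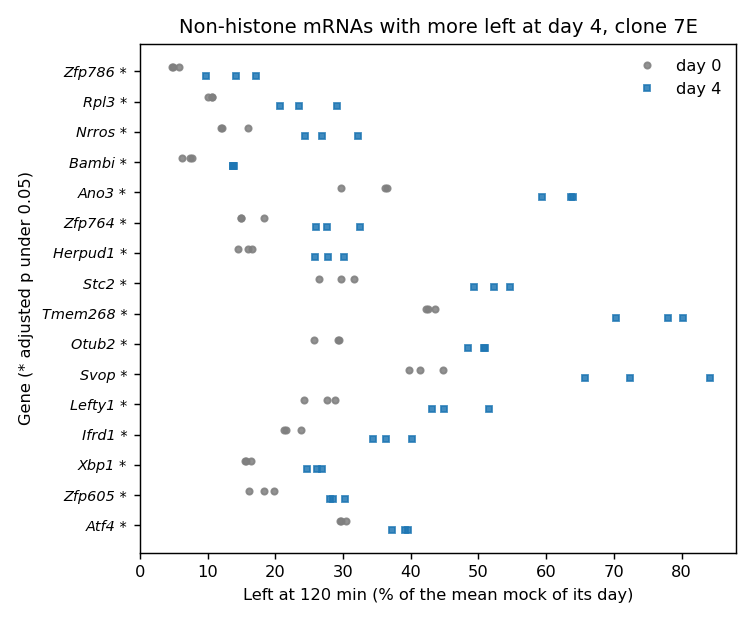
Share left at 120 min in clone 7E of 16 non-histone mRNAs with more left at day 4, in percent of the mean mock level of the same day; each point is a library, 3 per day, and genes are ordered by their change. In each gene the points of day 4 lie to the right of those of day 0, as in every called gene with more left. The 16 are the 10 called genes with the largest gain and Ifrd1, Atf4, Lefty1, Xbp1, Zfp605 and Zfp786, also called. An adjusted p under 0.05 was thus fixed by the choice, and only Rpl3 and Xbp1 passed with each replicate left out.

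Zinc-finger genes, many of them repressors of transposons, decay fast as a group, and 6 of 344 tested had more left and 1 had less, beside 0.744% and 0.549% of all genes. Their median share was 25.7% at day 0 and 28.4% at day 4, with a median log2 change of 0.09 that was 0.30 with own spike-ins, where 20 had more and 0 less left. Zfp786 went from 4.70, 5.78 and 4.86% to 9.71, 14.2 and 17.2% (adjusted p = 0.0366). Zfp764 and Zfp605 went from 16.1 to 28.7% and from 18.1 to 29.0%. Zfp750 had less left, 20.6% against 47.2% (adjusted p = 0.0366), and, like Zfp786, Zfp764 and Zfp605, it did not pass without replicate 2 (adjusted p = 0.639, 0.441, 0.513 and 0.248). Without replicate 2 the list had 0 called genes, against 26 with more and 3 with less left at an unadjusted p under 0.05.

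None of the other gene lists had a called member, which for the edgeR test means 0 of 12 Myc and Pim genes, 0 of 20 naive pluripotency genes, 0 of 21 mRNA-binding regulators of decay, 0 of 26 deadenylation and decapping factors, 0 of 27 factors of the Ski complex, the exosome and ribosome rescue, 0 of 15 small nucleolar RNA host genes and 0 of 7 mitochondrially encoded mRNAs. Over all genes tested 1.29% were called, and at that share lists of this size would hold few or no called genes. Without replicate 1, 2 mitochondrially encoded mRNAs and 1 regulator of decay had less left, and 1 naive pluripotency gene had more. Without replicate 3, 1 small nucleolar RNA host gene had more left. The naive pluripotency genes had a median share of 46.3% at day 0 and 39.6% at day 4, with a median log2 change of -0.23 that was -0.01 with own spike-ins. The 27 Ski complex, exosome and rescue factors had 71.6 and 63.1%, with a median log2 change of -0.08 that was 0.14 with own spike-ins. At an unadjusted p under 0.05 these 7 lists had, in the order given, 1, 0, 0, 0, 1, 1 and 0 genes with more left and 1, 8, 7, 2, 5, 2 and 1 with less left. DESeq2 called 2 naive pluripotency genes with less left and 1 small nucleolar RNA host gene with more left, and no member of the other 5 lists. The stem cell, primitive endoderm and fibroblast markers, with 10, 10 and 6 genes tested, held 0 called genes by either tool, and at an unadjusted p under 0.05 3, 3 and 0 had less left. With simulated counts the test found 100% of genes changed by 1 and 45% of those changed by 0.5 on the log2 scale. A change of this smaller size could thus go uncalled. The genes changed in the simulation had a mean of at least 100 counts, and libraries were drawn independently. These rates therefore do not cover list members with fewer counts or deviations that genes of a library share. Of mRNAs that the study discussed, Calr and Pdia4, chaperones of the endoplasmic reticulum, had 66.7 and 66.0% left at day 0 and 76.3 and 75.9% at day 4. Trim28, Sfpq and Pim3 had 82.3, 75.2 and 8.46% left at day 0 and 74.7, 64.3 and 7.77% at day 4. None of these 5 passed the test (adjusted p = 0.206 to 0.619).

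Genes called in clone 7E were looked up in clone 5F, whose libraries were not in that fit. Of the 69 non-histone protein-coding genes with more left, 62 had a positive change in clone 5F, with a median log2 change of 0.21. Of the 91 with less left 0 had a positive change, with a median of -0.26, and of the 50 histone genes 50 had a positive change, with a median of 3.97. Among the other 13497 protein-coding genes in that fit 6403 had a positive change, with a median of -0.01. In clone 5F 56 of 17328 genes (0.323%) had more left and 9 (0.0519%) less in the libraries labelled day 4. Of those with more left, 48 were among the 60 histone genes tested in clone 7E. The called genes were followed to 240 and 360 min as well, with the same mock libraries. The 69 genes had a median of 28.7% left at 120 min at day 0 and 47.1% at day 4, 22.0 and 33.1% at 240 min, and 19.5 and 27.2% at 360 min. The 91 genes had 65.3 and 43.2% at 120 min, 35.1 and 29.1% at 240 min, and 25.6 and 24.2% at 360 min.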

How the data were processed

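The authors sequenced rRNA-depleted RNA without strand information, mapped reads to mm10 (STAR 2.5.0a; unique mappers, at most 3 mismatches) and deposited counts per gene and per ERCC spike-in without normalization. The labels give actinomycin D as 5 ug/ul and the methods as 5 µM. Size factors of DESeq2 type were computed here within each time point, with 1 spike-in factor per time point from 34 ERCC sequences with a mean above 50. Changes in share left were the interaction of time with day in edgeR 4.0.16 (quasi-likelihood, filterByExpr, R 4.3.3) on 12 libraries, with Benjamini-Hochberg adjustment over 16946 genes and a threshold of 0.05. Alternatives used limma 3.58.1 and DESeq2 1.42.0. Gene symbols and sequences came from Gencode M21 and its genome. The authors' deposited half-life score served as 1 alternative definition. The authors' deposited binding ratios covered 39 of 69 genes with more left, under 80%, so that comparison was void. The fits were tested on simulated data.

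The members, gene lists and named genes were chosen with earlier results of these data known. Named genes were Skiv2l, Aven, the 10 largest gains and losses (called, protein-coding, non-histone, mean of at least 100 counts, same sign with each replicate left out), the most abundant histone gene per family, the 10 fastest decaying mRNAs, up to 4 called members per list, and genes discussed in the study. Other members of the lists were named after their values were seen. No column with values of a sample was left out (0).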

Additional observations from a re-analysis of the deposited data

Results flagged for a closer look

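The change in share left from day 0 to day 4 differed between clones 7E and 5F in 15 genes, by a test of the difference itself (edgeR, 23 libraries). Differences, clone 7E minus clone 5F on the log2 scale, were -3.09 for Hist1h1a, -2.90 for Hist1h1d, -2.63 for Hist1h1e, -2.61 for Hist1h1b and -1.95 for Hist1h1c among H1 genes, -2.75 for Hist1h3a and -2.08 for Hist1h3d, -2.75 for Hist2h4, -1.56 for Hist4h4 and -1.45 for Hist1h4d, -2.21 for Hist1h2ak, and -2.05 for Hist1h2bb and -1.48 for Hist2h2bb. Btg2 differed by -0.61. In each of these 13 histone genes more was left at day 0 in clone 7E than in clone 5F. Nlrp12, an innate immune receptor, differed by 3.96: it had 8.71 and 90.9% left in clone 7E and 21.5 and 13.9% in clone 5F, from 18.4 to 37.1 normalized counts in mock cells at day 0 and 7.29 to 10.5 at day 4, and its change in clone 7E had an adjusted p of 0.073 without replicate 1 and 0.316 without replicate 2.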

How the results depend on the processing

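Genes with more and less left numbered 126 and 93. With own spike-ins they numbered 392 and 15, without a filter on low counts 244 and 389, and DESeq2 called 180 with less left; leaving out 1 replicate gave 50 to 113 and 11 to 83. TMM, factors from clone 7E alone, limma, a mean of at least 50 counts and all 24 libraries of the clone gave counts within 1.5 times. The p53 target genes with less left numbered 3 with own spike-ins and 3 to 8 with 1 replicate left out. Among short-lived genes, own spike-ins gave 121 with more left and a median of 0.40, and 73 and 0.37 without histones; a limit of 15% gave medians of 0.29 and, without histones, 0.20 with 9 genes, and the half-life score under 90 min gave 0.11 and, without histones, 0.057 with 11 genes, and leaving out 1 replicate, an alternative added after the data were seen, gave 2 to 20 genes without histones. The median share over the classes was 64.6% at day 0 with factors from clone 7E alone and at day 4 62.91% with these and 68.7% with own spike-ins. The clones differed with 15 larger and 9 smaller changes with own spike-ins, 2 larger with DESeq2, and 0 to 1 larger and 10 to 12 smaller with 1 replicate of clone 7E left out (also added later). Mock levels were higher in 221 and lower in 14694 genes with own spike-ins. Of uncalled genes, own spike-ins turned Trim28 to 0.0838, Pim3 to 0.0907 and Med26 to 0.178; factors from clone 7E alone and limma turned Dusp6 to -0.00386 and -0.00288; leaving out replicates turned Dusp6 to -0.0974 and -0.0140 (range to 0.112), Gbx2 to -0.135 (to 0.207), Med26 to 0.0623 and 0.0583 (down to -0.198), Zfp748 to -0.0221 (to 0.207) and Zfp87 to -0.203 (to 0.214). The cause was not tested.

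With the replicate number as a block, 126 genes had more and 108 less left, 50 histone genes, 8 p53 target genes, and 1 and 13 genes between clones. Among same-numbered libraries, 7 of 18 correlations of their deviations exceeded 0.1 (-0.273 to 0.527), and those of other pairs ran from -0.484 to 0.319. At 120 min the mitochondrial share of counts rose with the replicate number, 1.25, 2.07 and 3.99% at day 0 and 0.767, 2.07 and 2.92% at day 4. In mock cells it fell at day 0 (2.12, 1.93 and 1.73%) and rose at day 4 (1.65, 2.09 and 2.62%). The main fit did not pair libraries, and whether the replicate number marks a shared batch was not tested.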

Other observations

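The following 9 called genes with more left at day 4 were picked after their values were seen; they are no fixed list, were not tested as a group, and all but Xbp1 lost the call when a replicate was left out. Xbp1, the transcription factor of the unfolded protein response, had 16.4, 15.5 and 15.7% left at day 0 and 26.9, 26.1 and 24.7% at day 4 (log2 change 0.71 ± 0.10 SE, adjusted p = 6.27e-04). Manf, a secreted protein induced by stress of the endoplasmic reticulum, went from 50.0 to 66.8%. Mogs, the glucosidase that trims the first sugar from N-glycans, went from 25.9 to 38.2%. Pomk, Pomgnt1 and B3galnt2, enzymes of dystroglycan O-mannosylation, went from 21.5 to 35.6%, from 33.4 to 47.9% and from 41.2 to 55.4%. Pofut1, which adds fucose to Notch, went from 48.8 to 67.8%, and Pigv, a mannosyltransferase of GPI anchors, from 22.7 to 39.7%. The 9 genes chosen this way include Creld1. Of them, 8 were lower in mock cells at day 4 and 0 higher, beside 13.4% and 16.0% of all genes. Over all 69 non-histone protein-coding genes with more left, 29 were lower in mock cells and 16 higher. The mock libraries enter both values. With a replicate left out the 8 genes other than Xbp1 reached adjusted p-values of 0.351 to 0.614. The chaperones Calr and Pdia4, also of the endoplasmic reticulum, did not pass the test (adjusted p = 0.206 and 0.327).

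Genes short-lived in clone 5F with less left at day 4 in clone 7E were, outside histones, Inka2, Junb, Id1, Susd6, Enc1 and Irf2bp2. Enc1, an actin-binding protein, had 23.1 and 16.1% left, and Irf2bp2, a transcriptional corepressor, 20.0 and 14.2%.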
